A study of Homo sapiens with 40 samples.

Results

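Total RNA of BEAS-2B cells given IL-13 was compared with total RNA of the same cells left unstimulated. BEAS-2B is an immortalised human bronchial epithelial line. The cells carried a constitutive control hairpin (shControl, written siC in the column names). The comparison used 10 of the 40 libraries of the series, 5 labelled input_IL13_siC and 5 labelled input_unstim_siC, chosen by their labels alone. Input is the total RNA taken before polysome fractionation (Frac-seq, which sets total RNA beside polyribosome-bound RNA). Both groups were grown in RPMI with serum and starved overnight in 2% serum. The IL-13 group then received 100 ng/ml of the cytokine and was harvested 24 h later, while the design text of the series speaks of an overnight stimulation. The other 30 libraries were polysome RNA of these cells and both fractions of cells with a hairpin against IGF2BP3. There was 1 line per hairpin, and nothing in the labels says that the replicates came from separately grown cultures, so p-values measure the spread between these libraries.

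IL-13 is a type 2 cytokine of T cells and innate lymphoid cells and a main driver of allergic airway inflammation. On epithelial cells it binds IL13RA1, which pairs with IL4R. The chains signal through the kinases JAK1, JAK2 and TYK2 to STAT6, which enters the nucleus and binds DNA. IL13RA2 is a high-affinity decoy chain. SOCS proteins are induced by such signals and dampen them. In airway epithelium IL-13 is known for inducing eotaxin-3, periostin, lipoxygenase, serpins and mucins.

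The 10 libraries held between 21713842 and 40441061 estimated counts. To check the labelled cell type, marker genes were summed. Of 10 epithelial markers 6 averaged at least 1 CPM (counts per 1000000 of the scaled library size), and their summed level ran from 1872 to 3042 CPM in unstimulated and from 2432 to 3832 CPM in IL-13 libraries. The sum was mostly keratin, with KRT8, KRT18, KRT17, KRT7 and KRT19 at means of 1304, 715, 507, 149 and 34.9 CPM. CDH1 averaged 1.32 CPM, and EPCAM, KRT14 and TP63 averaged 0.565, 0.240 and 0.0511 CPM. KRT5, a basal cell keratin, averaged 0.183 CPM. Airway secretory markers were at or near 0 in every library, with SCGB1A1, SCGB3A2, BPIFA1, BPIFB1 and TFF3 at 0 in all 10 and a summed level of at most 0.407 CPM. Mesenchymal markers summed to between 2563 and 3810 CPM in unstimulated and between 2119 and 3850 CPM in IL-13 libraries. The immune markers PTPRC, CD3E, CD3D, MS4A1, NKG7, TPSAB1 and HBB were at 0 in all 10, and the summed level of the immune list ran from 17.1 to 48.0 CPM. Of its 14 markers 3 averaged at least 1 CPM, CD14 (16.8 CPM), CD68 (9.74 CPM) and CPA3 (1.83 CPM).

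Unstimulated replicate 1 stood apart. On CPM + 1, 82 genes were more than 4-fold above the highest of the other 9 libraries there and 18 were more than 4-fold below the lowest. No other library of the 10 had more than 2 such genes above or 5 below. CXCL8, the neutrophil chemokine IL-8, read 132 CPM in this library and at most 0.582 CPM in the other 9. CXCL1, a related chemokine, read 105 CPM against at most 0.902. FOSB, an immediate early transcription factor, read 113 CPM against at most 1.96, and NR4A1, an immediate early nuclear receptor, 126 CPM against at most 4.59. ELF1, SPG11, VPS13B and PPP1R21 were listed at 0 CPM in it, and each read between 8.00 and 37.6 CPM in the other 9. Results are therefore given with all libraries (5 against 5) and without this replicate (5 against 4), for which its polysome library was left out as well.

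IL-13 replicates 1, 3 and 5 also differed from the rest, in RNAs that carry no poly(A) tail. These genes were chosen by name after the values were seen. Summed over 32 small non-coding RNA genes (RMRP, RPPH1, RN7SL2, RNU4-2 and others), the IL-13 libraries 1 to 5 read 7431, 180, 4012, 242 and 1994 CPM, and the unstimulated libraries 545, 117, 299, 760 and 390 CPM. Summed over 65 histone genes, the IL-13 libraries read 580, 175, 346, 167 and 280 CPM, and the unstimulated libraries between 148 and 221 CPM. In both sets IL-13 replicates 2 and 4 lay within the unstimulated range and the other 3 above it.

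**Figure D1:**
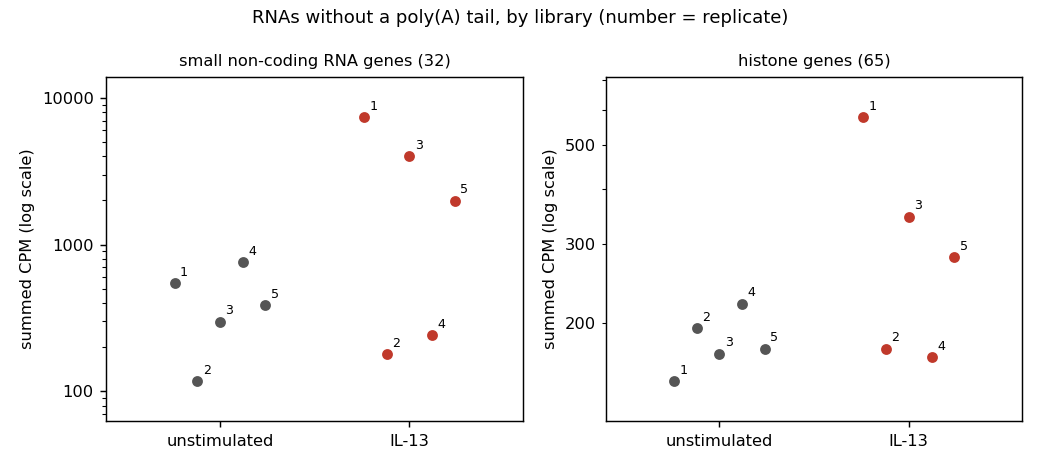
Summed level of small non-coding RNA genes (left) and histone genes (right) in CPM on log axes, 1 point per library with its replicate number, unstimulated in grey and IL-13 in red. IL-13 replicates 1, 3 and 5 lie above all 5 unstimulated libraries in both panels, and IL-13 replicates 2 and 4 lie among them.

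With all libraries 13 of 16735 genes were called at an adjusted p under 0.05 (0.0777%), all of them higher with IL-13, and none was lower (0%). Without unstimulated replicate 1, 13 of 16995 genes were called (0.0765%), again all higher and none lower. The fits shared 11 calls. NABP1 and LIMA1 were called only with all libraries, and RASD2 and RNF19B only without the replicate. The Wald test of DESeq2, run as an alternative to edgeR, called 33 genes with all libraries (28 higher and 5 lower) and 27 without the replicate (24 higher and 3 lower), and each set held all 13 genes of the matching edgeR fit. The lower genes of the Wald test with all libraries were G0S2 (log2 fold change -3.78) and MIR22HG, SULT1A4, PINX1 and ENSG00000285976 (-25.5 to -20.8). Without the replicate they were MIR22HG, PINX1 and ENSG00000285976 (-26.7 to -20.7). These large estimates had SEs from 2.49 to 6.04. ENSG00000285976 was listed at 0 in all 5 IL-13 libraries and at 0 to 67.5 CPM unstimulated, so the size of its change was not measured. G0S2 read 91.6 CPM in unstimulated replicate 1 and at most 3.11 CPM in any other library compared. Its Wald estimate without that replicate was -0.23 (unadjusted p = 0.670). Leaving out unstimulated replicate 3 lowered the 13 edgeR calls with all libraries to 8. At an unadjusted p under 0.05 edgeR gave 179 higher (1.07%) and 162 lower genes (0.968%) with all libraries, and 196 higher (1.15%) and 70 lower (0.412%) without the replicate. The 5 IL-13 libraries lay above all 5 unstimulated libraries in 44 genes (0.263%) and below all of them in 26 (0.155%). The 13 genes called with all libraries were among the 44. The median log2 fold change over all genes was -0.0025.

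The SOCS family held the called gene of smallest p. CISH, a cytokine-inducible SOCS protein that binds activated receptors, read 2.82, 2.30, 1.65, 1.51 and 2.08 CPM in unstimulated replicates 1 to 5 and 45.5, 30.5, 27.6, 27.6 and 35.2 CPM with IL-13. The groups lay far apart. In bulk RNA a change in the number of cells that express a gene and a change in RNA per cell cannot be told apart. CISH rose by 4.01 on the log2 scale (SE 0.253, adjusted p = 4.89e-14), and by 4.14 (SE 0.263, adjusted p = 2.14e-13) without unstimulated replicate 1. In length-scaled TPM it went from 1.33 ± 0.386 (SD, n = 5) to 19.1 ± 4.43 (SD, n = 5). STAT dimers recognise palindromes made of TTC and GAA with a spacer of 3 bases or, for STAT6, of 4 bases, so the RefSeq promoter of CISH is shown for the bases that match them. The 250 bases before its start, on the minus strand of GRCh38.p14 at chr3:50611775-50612024, are printed 5′ to 3′ with each match in capitals.
CISH: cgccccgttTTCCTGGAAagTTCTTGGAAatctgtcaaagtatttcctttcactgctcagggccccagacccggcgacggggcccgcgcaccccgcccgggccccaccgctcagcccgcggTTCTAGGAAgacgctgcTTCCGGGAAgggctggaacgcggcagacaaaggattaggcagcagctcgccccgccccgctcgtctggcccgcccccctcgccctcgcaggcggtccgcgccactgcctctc
The window held 4 matches with the spacer of 3 bases, starting 241, 230, 129 and 112 bases before the gene's start, and none with the spacer of 4. A match is a description of the letters and was not tested as a binding site.

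SOCS1, which blocks JAK kinases directly, rose as well. It read 2.64, 1.08, 1.46, 1.60 and 1.59 CPM unstimulated and 19.4, 8.28, 11.0, 7.65 and 7.89 CPM with IL-13. The groups did not overlap, and IL-13 replicate 1 was well above the next library. The increase was 2.69 on the log2 scale (SE 0.392, adjusted p = 1.10e-04) and 2.92 (SE 0.413, adjusted p = 1.21e-04) without unstimulated replicate 1. Without IL-13 replicates 1, 3 and 5 it was 2.25 (SE 0.465, adjusted p = 0.0569), which ended its call. Its promoter window held neither palindrome. SOCS3, often induced through STAT3, overlapped between the groups, at 37.6, 27.9, 18.5, 26.3 and 41.6 CPM unstimulated and 23.8, 26.0, 22.2, 40.0 and 25.1 CPM with IL-13. SOCS2 gave a log2 fold change of -1.07 (SE 0.517, unadjusted p = 0.0452, adjusted p = 1) with all libraries and -0.56 (unadjusted p = 0.252) without unstimulated replicate 1, which held its highest value, 9.00 CPM. Of the 8 family members, all tested, CISH and SOCS1 were called and 6 had a negative estimate that did not pass.

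CCL26, eotaxin-3, a chemokine that draws eosinophils, was near absent without the cytokine. It read 0.0357, 0, 0.133, 0.233 and 0.0407 CPM unstimulated and 11.7, 10.2, 14.1, 11.9 and 14.9 CPM with IL-13. The IL-13 libraries were close together, and the groups lay apart. CCL26 rose by 7.00 on the log2 scale (SE 0.696, adjusted p = 2.48e-08) with all libraries and 6.82 (SE 0.735, adjusted p = 4.00e-07) without unstimulated replicate 1. Per transcript length CCL26 reached 41.7 ± 3.55 TPM (SD, n = 5) with IL-13, against 0.321 ± 0.320 TPM (SD, n = 5) without. Among the genes described here that were at under 2 TPM in unstimulated cells, it had the highest TPM with IL-13. No palindrome was found in its promoter window.

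HSD3B1, a steroid dehydrogenase and isomerase that makes progesterone and androstenedione, was at or under 2 counts in every unstimulated library. It read 0, 0, 0.0531, 0 and 0.0407 CPM there and 1.44, 8.06, 2.21, 2.81 and 4.34 CPM with IL-13. The lowest IL-13 library was above every unstimulated one, and IL-13 replicate 2 was the highest. Summed counts were 556 with IL-13 and 3 without, a depth-scaled ratio of 203 with a counting interval (95%) from 69.0 to 986, which covers counting error only. It was called in both fits (adjusted p = 2.72e-08 with all libraries and 5.59e-07 without unstimulated replicate 1). Its fitted log2 fold change of 7.28 (SE 0.736) depends on the prior count of the model. The RefSeq table gives HSD3B1 2 promoters whose starts lie 7 bases apart, and both hold the same match. The one at chr1:119506953-119507202 (GRCh38.p14, plus strand) is shown for this match with the spacer of 4 bases, in capitals, which starts 152 bases before the start.
HSD3B1: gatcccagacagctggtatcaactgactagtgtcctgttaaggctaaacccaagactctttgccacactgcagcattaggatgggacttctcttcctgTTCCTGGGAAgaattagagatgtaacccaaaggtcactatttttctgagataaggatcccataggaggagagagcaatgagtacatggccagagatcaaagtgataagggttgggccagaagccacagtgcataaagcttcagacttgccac
The wider list of 25 steroid metabolism genes had 17 tested members, of which HSD3B1 was the only one past an unadjusted p of 0.05. Over all genes 2.04% were past it with all libraries.

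Of the scaffold and cytoskeleton genes, PPFIBP2, a liprin of the beta class, had the smallest p with all libraries. It read 1.54, 4.78, 4.73, 2.65 and 6.68 CPM unstimulated and 45.2, 36.2, 29.9, 36.9 and 27.1 CPM with IL-13, with no overlap. The increase was 3.11 on the log2 scale (SE 0.424, adjusted p = 3.77e-05), and 2.90 (SE 0.436, adjusted p = 3.40e-04) without unstimulated replicate 1, which held its lowest value. The RefSeq table gives PPFIBP2 5 promoters, and the one at chr11:7577641-7577890 (GRCh38.p14, plus strand) held both of its matches with the spacer of 4 bases, starting 116 and 50 bases before the start and shown in capitals.
PPFIBP2: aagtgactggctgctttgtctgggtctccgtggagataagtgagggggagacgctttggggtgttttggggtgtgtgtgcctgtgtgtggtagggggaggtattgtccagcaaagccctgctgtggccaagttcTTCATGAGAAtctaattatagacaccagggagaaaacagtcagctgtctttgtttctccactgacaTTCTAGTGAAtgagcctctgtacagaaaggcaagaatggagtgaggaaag
A pair of its other promoters held 1 match each with the spacer of 3 bases. RFLNA, a filamin-binding protein that bundles actin, read 2.86, 0, 1.01, 3.90 and 1.91 CPM unstimulated and 9.71, 11.8, 26.4, 15.9 and 17.2 CPM with IL-13. Its log2 fold change was 3.06 (SE 0.583, adjusted p = 0.009997), 3.24 (SE 0.615, adjusted p = 0.00961) without unstimulated replicate 1, and 2.90 (SE 0.630, adjusted p = 0.0826) without unstimulated replicate 3. LIMA1, an actin cross-linking LIM protein, read 119, 173, 154, 122 and 112 CPM unstimulated and 342, 379, 289, 262 and 262 CPM with IL-13. The groups lay clearly apart, yet the call for an increase of 1.17 (SE 0.248, adjusted p = 0.0386) was lost on leaving out 7 of the 10 libraries in turn (IL-13 replicates 1, 2 and 3 and unstimulated replicates 1, 3, 4 and 5), with adjusted p up to 0.227. Without unstimulated replicate 1 the increase was 1.13 (SE 0.268, adjusted p = 0.153).

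Over the 10 genes called in either fit that had a RefSeq promoter of 300 bases, 250 before and 50 after the start, 4 held at least 1 palindrome of either spacer, TTC and GAA with any 3 or 4 bases between them (40%): CISH, HSD3B1, PPFIBP2 and LIMA1. The share over all genes with a promoter was 16.15% (4409 of 27305), and over tested genes 13.75% (1584 of 11523). Genes differ in their number of promoters, 5 for PPFIBP2. Counted by promoter, the shares were 43.75% (7 of 16) and 13.46% (4727 of 35116), where the single HSD3B1 match counts in both of its overlapping promoters. With the spacer of 4 bases alone 20% of the 10 genes and 7.797% of all genes matched, and with the spacer of 3 alone 30% and 9.376%. Each palindrome reads the same on both strands, so both strands were covered, and the spacers of 3 and 4 bases keep them from matching at the same end points.

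SPINT2, a Kunitz inhibitor of serine proteases at the epithelial surface, rose from a level that was already high. It read 75.7, 54.8, 48.7, 88.1 and 51.5 CPM unstimulated and 170, 159, 208, 186 and 187 CPM with IL-13. SPINT2 rose by 1.51 on the log2 scale (SE 0.221, adjusted p = 1.10e-04) with all libraries and 1.58 (SE 0.242, adjusted p = 4.11e-04) without unstimulated replicate 1. NPPB, the precursor of B-type natriuretic peptide, read 64.7, 16.5, 37.1, 45.2 and 55.3 CPM unstimulated and 91.7, 140, 163, 221 and 194 CPM with IL-13. Both groups were spread, with no overlap between them. NPPB rose by 1.89 (SE 0.323, adjusted p = 0.00201), and by 2.07 (SE 0.348, adjusted p = 0.00199) without unstimulated replicate 1. Fitted on the compared libraries alone NPPB was not called (adjusted p = 0.128 with all 10 and 0.0617 without unstimulated replicate 1). Per length it was the most abundant of the genes described here that were called, at 319 ± 107 TPM (SD, n = 5) with IL-13 and 95.1 ± 37.9 TPM (SD, n = 5) without. SPINT2 stood at 134 ± 8.46 TPM (SD, n = 5) with IL-13.

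CCDC86, MSX1 and NABP1 encode proteins of the nucleus. CCDC86, a nuclear coiled-coil protein, read 46.4, 35.2, 32.6, 49.9 and 38.6 CPM unstimulated and 99.2, 86.1, 97.9, 69.2 and 78.4 CPM with IL-13. It rose by 1.09 on the log2 scale (SE 0.186, adjusted p = 0.00201), and by 1.14 (SE 0.201, adjusted p = 0.00369) without unstimulated replicate 1. Without IL-13 replicates 1, 3 and 5 its estimate was 0.94 (adjusted p = 0.626). MSX1, a homeobox repressor of transcription, read 0.464, 0, 0.159, 0.145 and 0.0407 CPM unstimulated and 7.18, 5.68, 1.46, 1.06 and 3.68 CPM with IL-13. Its IL-13 libraries were widely spread, and the groups did not overlap. It rose by 4.52 (SE 0.918, adjusted p = 0.0261), and by 5.33 (SE 1.01, adjusted p = 0.00961) without unstimulated replicate 1, and the former call was lost on leaving out any of 6 libraries (IL-13 replicates 1 and 2 and unstimulated replicates 2, 3, 4 and 5), with adjusted p up to 0.147. Once unstimulated replicate 1 was out, leaving out another unstimulated library ended the calls of MSX1 (replicate 2, 3 or 5, adjusted p up to 0.104), RFLNA (replicate 3 or 5, adjusted p up to 0.127) and CCDC86 (replicate 3, adjusted p = 0.0505). NABP1, a single-stranded DNA binding protein of DNA repair, read 13.2, 14.8, 13.5, 14.0 and 16.7 CPM unstimulated and 31.9, 25.8, 27.8, 24.2 and 20.1 CPM with IL-13. It had the smallest change among the genes described here that were called with all libraries, 0.85 (SE 0.174, adjusted p = 0.0287), and 0.82 (SE 0.186, adjusted p = 0.105) without unstimulated replicate 1. Leaving out IL-13 replicate 1, 2 or 3 or unstimulated replicate 1, 2, 3 or 4 ended its call, with adjusted p up to 0.207. With an offset for transcript length its estimate was 0.67 (SE 0.214, adjusted p = 0.830). It was not called with no filter on low counts either (adjusted p = 0.192). In TPM the groups of NABP1 overlapped, with IL-13 replicate 5 at 7.03 and the unstimulated libraries between 7.89 and 10.7.

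RASD2 and RNF19B were called once unstimulated replicate 1 was left out. RASD2, a small GTPase of the Ras family, read 3.50, 1.20, 1.41, 0.873 and 1.71 CPM unstimulated and 9.62, 4.72, 3.20, 4.56 and 3.77 CPM with IL-13. Replicate 1 was the highest library of its group in both arms, and unstimulated replicate 1 overlapped with the IL-13 group. RASD2 gave a log2 fold change of 1.57 (SE 0.362, adjusted p = 0.102) with it and 1.99 (SE 0.351, adjusted p = 0.00369) without it. The latter call was lost with only the compared libraries (adjusted p = 0.174) and without IL-13 replicates 1, 3 and 5 (adjusted p = 0.0981). RNF19B, a membrane-bound ubiquitin ligase, read 72.0, 39.5, 48.3, 43.4 and 52.7 CPM unstimulated and 82.1, 81.5, 70.6, 85.4 and 89.4 CPM with IL-13. Here too the overlap came from unstimulated replicate 1, which lay above IL-13 replicate 3. The log2 fold change was 0.68 (SE 0.165, adjusted p = 0.183) with it and 0.83 (SE 0.152, adjusted p = 0.00589) without it. The RNF19B call was lost on also leaving out unstimulated replicate 2 (adjusted p = 0.0952), with only the compared libraries (adjusted p = 0.0540) and without IL-13 replicates 1, 3 and 5 (adjusted p = 0.133).

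**Figure D2:**
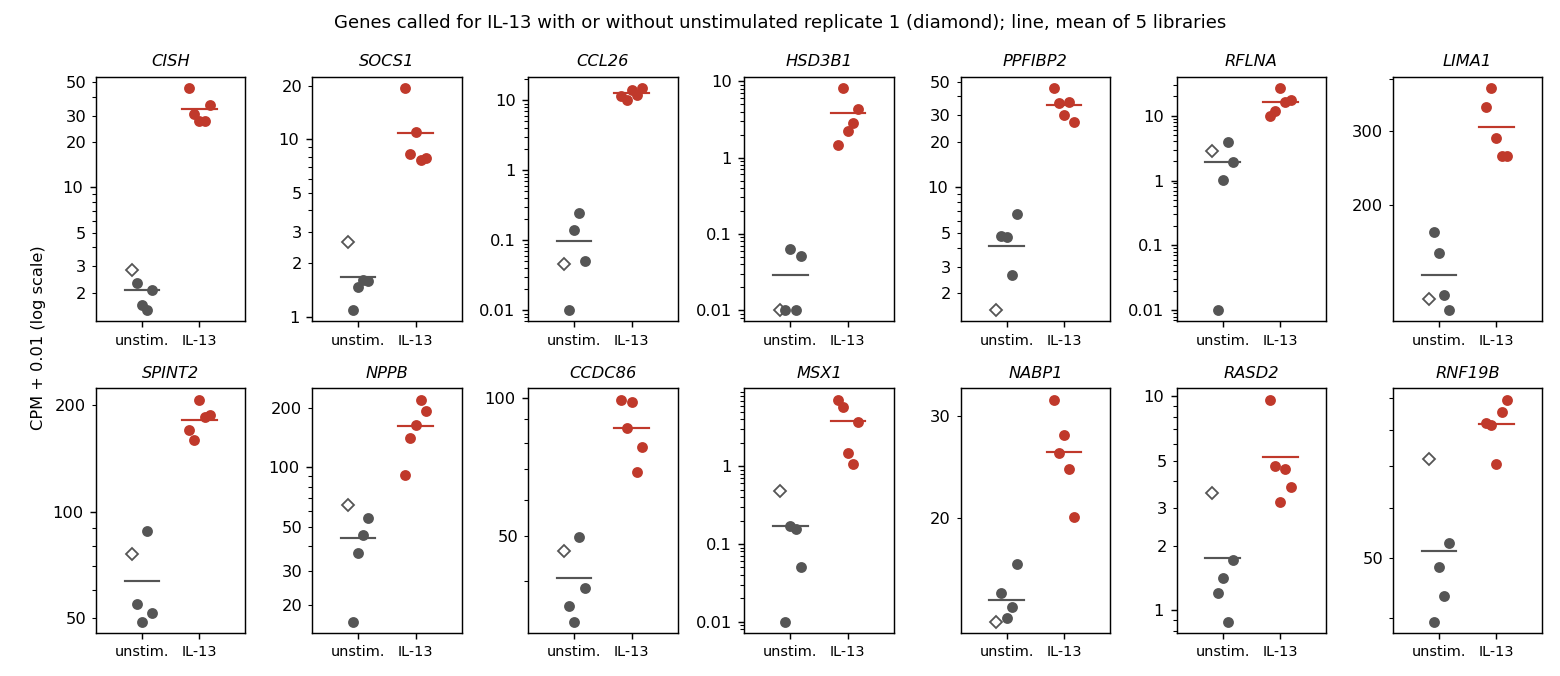
Level of 14 genes called in either fit, in CPM + 0.01 on log axes, 1 point per library and a line at the mean of 5 libraries, with unstimulated in grey (open diamond, replicate 1) and IL-13 in red. The IL-13 points lie above all unstimulated points except for RASD2 and RNF19B, where the diamond reaches the IL-13 points.

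**Figure D3:**
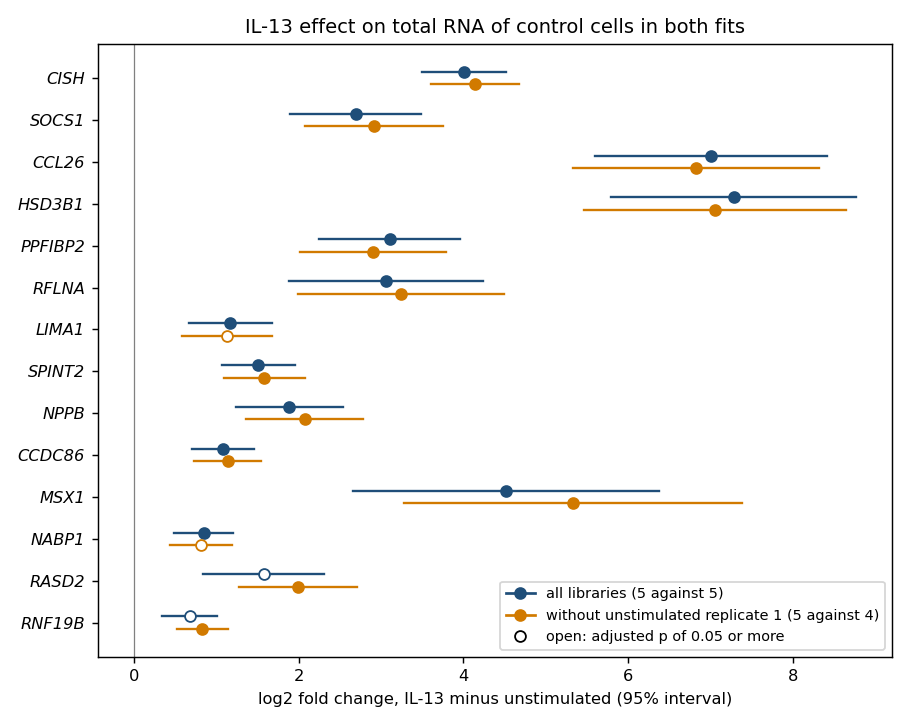
Log2 fold change (IL-13 minus unstimulated) with its 95% interval for the same 14 genes, with all libraries in blue and without unstimulated replicate 1 in orange, filled where the adjusted p is under 0.05. All intervals lie above 0, from 0.85 for NABP1 to 7.28 for HSD3B1 among genes called with all libraries, and open symbols mark LIMA1 and NABP1 in orange and RASD2 and RNF19B in blue.

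Across all 20 input libraries, with those of the IGF2BP3 hairpin line, log2(CPM + 1) of CCL26 was most like that of CISH, with a Pearson correlation of 0.985. SOCS1 followed at 0.975, PPFIBP2 at 0.943 and HSD3B1 at 0.927. These are descriptions over 20 libraries that share the treatment groups.

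The receptor and its signalling chain were present and did not pass the test in either fit. Of 22 receptor and signalling genes 20 were tested, none was called, and none reached an unadjusted p of 0.05 with or without unstimulated replicate 1, beside 2.04% and 1.57% of all genes in either direction. IL4R, the shared chain, read 65.3, 27.8, 20.7, 21.3 and 33.8 CPM unstimulated and 33.3, 20.5, 15.1, 32.3 and 21.9 CPM with IL-13. Its highest value was unstimulated replicate 1, and the log2 fold change moved from -0.46 (95% interval -1.09 to 0.18) to -0.07 (-0.66 to 0.51) without that library. IL13RA1, the IL-13 binding chain, read 45.7, 51.3, 46.6, 37.3 and 51.6 CPM unstimulated and 48.1, 41.8, 29.7, 45.1 and 30.5 CPM with IL-13, and its interval ran from -0.77 to 0.27.

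STAT6, the transcription factor of the pathway, read 104, 87.8, 88.2, 115 and 87.7 CPM unstimulated and 96.9, 89.8, 94.8, 86.5 and 97.4 CPM with IL-13. The groups overlapped almost fully, and the log2 fold change was -0.05 (95% interval -0.49 to 0.39). JAK1 and TYK2, kinases bound to the receptor chains, also overlapped, with log2 fold changes of 0.07 (-0.64 to 0.78) and -0.04 (-0.52 to 0.43). IL13RA2, the decoy chain, was listed at 0 in all 10 libraries, and IL2RG, which pairs with IL4R on blood cells, at 0 in 9 of them. Per length IL13RA1 stood at 14.9 ± 2.91 TPM (SD, n = 5), IL4R at 11.9 ± 6.67 TPM (SD, n = 5) and STAT6 at 30.8 ± 2.18 TPM (SD, n = 5) in unstimulated cells. These intervals show how large a change these libraries would leave unseen, and a p that misses the threshold does not show that the levels were alike.

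**Figure D4:**
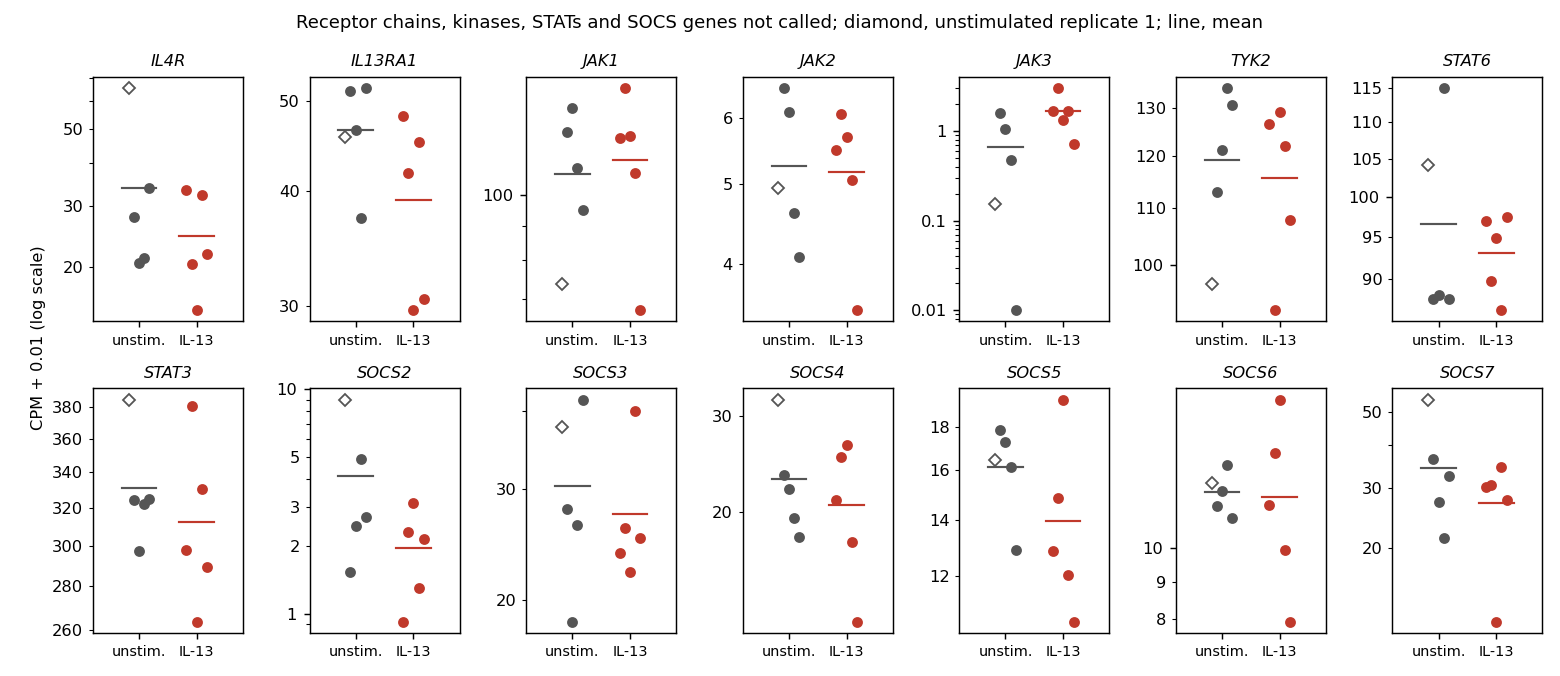
Level of 14 receptor, kinase, STAT and SOCS genes that were not called, in CPM + 0.01 on log axes, 1 point per library with unstimulated in grey (open diamond, replicate 1) and IL-13 in red, and a line at each mean. The groups overlap in every panel, and the diamond is the highest unstimulated point for IL4R, STAT3, SOCS2, SOCS4 and SOCS7.

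A list of 40 genes that IL-13 is known to induce in airway epithelium had 11 members above the count filter. Of these, 3 were called, CCL26 and HSD3B1 among them, and 8 were higher and 1 lower at an unadjusted p under 0.05 with all libraries, beside 1.07% and 0.968% of all genes. The median log2 fold change over the 11 was 2.69. Members that passed only through their IL-13 level had to be higher, and the list was set up with earlier results of these data known. The counts and the median therefore describe the tested members alone, and the counts cannot be read against the shares over all genes. Without unstimulated replicate 1 there were 8 higher and 0 lower.

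TGM2, transglutaminase 2, a protein cross-linking enzyme, read 26.5 CPM in unstimulated replicate 1 and 1.17, 0.478, 3.61 and 1.79 CPM in replicates 2 to 5. With IL-13 it read 23.5, 60.8, 34.6, 28.6 and 9.29 CPM. Replicate 1 was the sole unstimulated library inside the IL-13 range. The log2 fold change was 2.23 (SE 0.953, adjusted p = 1) with all libraries and 4.15 (SE 0.918, adjusted p = 0.0786) without it, so TGM2 was not called in either fit. Without the replicate it was called by the DESeq2 Wald test (adjusted p = 0.00371) and by edgeR with no filter on low counts (adjusted p = 0.00494). PDCD1LG2, the PD-1 ligand PD-L2, read 9.53, 6.34, 4.33, 3.43 and 6.52 CPM unstimulated and 14.7, 12.7, 7.30, 12.4 and 5.87 CPM with IL-13, a log2 fold change of 0.81 (SE 0.351, unadjusted p = 0.0261). CD274, the PD-1 ligand PD-L1, gave -1.36 (unadjusted p = 0.0178) with all libraries and -0.25 (unadjusted p = 0.385) without replicate 1, where it read 35.7 CPM.

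ALOX15, the lipoxygenase of type 2 airway disease, was barely present, at 0, 0, 0, 0.0582 and 0.163 CPM unstimulated and 0.653, 0.803, 0.570, 0.152 and 0.482 CPM with IL-13 (unadjusted p = 0.00312, adjusted p = 0.780). SERPINB3, a serpin raised in type 2 airway inflammation, read at most 0.143 CPM unstimulated and between 0.193 and 0.641 CPM with IL-13. These groups did not overlap, and the gene was not called (unadjusted p = 0.0106, adjusted p = 1). SERPINB4, its near-identical neighbour in sequence, with which reads may be shared, had 8 counts in unstimulated replicate 1 and 0 in the other 4 unstimulated libraries, and IL-13 replicate 1 was at 0 too. It was called by the DESeq2 Wald test without unstimulated replicate 1 (adjusted p = 0.0167) and not by edgeR (adjusted p = 0.111). The 9 airway secretory markers, MUC5AC among them, were all below the count filter.

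The next lists held genes that were high in unstimulated replicate 1. Of 31 tested immediate early and growth factor genes, 18 were lower at an unadjusted p under 0.05 with all libraries, beside 0.968% of all genes, and 1 was higher and 2 were lower without the replicate. Their median log2 fold change went from -1.18 to -0.12. Of 23 tested NF-kB and inflammatory cytokine genes 15 were lower with all libraries and 0 without the replicate, with medians of -1.81 and -0.03. Of 29 tested amino acid stress genes, targets of the transcription factor ATF4, 7 were lower with all libraries and 0 without, with medians of -0.67 and -0.12. None of these genes was called by edgeR in either fit. With no filter on low counts edgeR called CXCL8 lower with all libraries and not without the replicate. The DESeq2 Wald test called none of the 3 lists lower, but gave no adjusted p with all libraries for 7 of the immediate early and 9 of the NF-kB genes. These lists were set up with this replicate's profile already known.

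CXCL8 carried the smallest p of the genes with a negative estimate and at least 1 CPM in a group, and was not called by edgeR with the filter on low counts. It read 132, 0.0598, 0.0796, 0.582 and 0.448 CPM unstimulated and 0, 0.321, 0.142, 0.0506 and 0 CPM with IL-13. Replicate 1 stood alone and the other 9 libraries overlapped. The log2 fold change was -7.88 (SE 1.85, adjusted p = 0.128) with all libraries and -1.42 (SE 1.14, unadjusted p = 0.220) without replicate 1. With no filter on low counts it was called with all libraries (-7.87, SE 1.54, adjusted p = 0.0117). In that setting it was not called without replicate 1 (-1.43, SE 1.20, unadjusted p = 0.239). Leaving out each of the other libraries was not run in that setting. With the filter, the adjusted p ran from 0.0741 to 1 on leaving out each library in turn. EGR3, an immediate early zinc finger factor, went from -6.19 (unadjusted p = 7.27e-04) to -0.94 (unadjusted p = 0.401), and DUSP5, a phosphatase of ERK, from -2.45 (unadjusted p = 8.88e-04) to -0.45 (unadjusted p = 0.113). ASNS, asparagine synthetase, an ATF4 target, read 346 CPM in replicate 1 and between 5.11 and 27.7 CPM in the other 9.

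KLF2, a transcription factor of the immediate early list, had a positive estimate in both fits and was called by edgeR in neither. It read 27.5, 3.08, 4.38, 5.41 and 3.34 CPM unstimulated and 11.8, 10.1, 10.0, 8.71 and 8.33 CPM with IL-13. The IL-13 libraries lay between unstimulated replicate 1 and the other 4. The log2 fold change was 0.16 (SE 0.488, unadjusted p = 0.738) with replicate 1 and 1.27 (SE 0.318, unadjusted p = 3.09e-04, adjusted p = 0.272) without it, where the DESeq2 Wald test called it (adjusted p = 0.00686). With the length offset its estimate with all libraries turned negative (-0.064). IL6 went from -1.82 (unadjusted p = 0.0697) to 1.12 (unadjusted p = 0.0546), and PHLDA1, of the same immediate early list as KLF2, from -1.50 (unadjusted p = 0.00194) to -0.45 (unadjusted p = 0.0204).

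**Figure D5:**
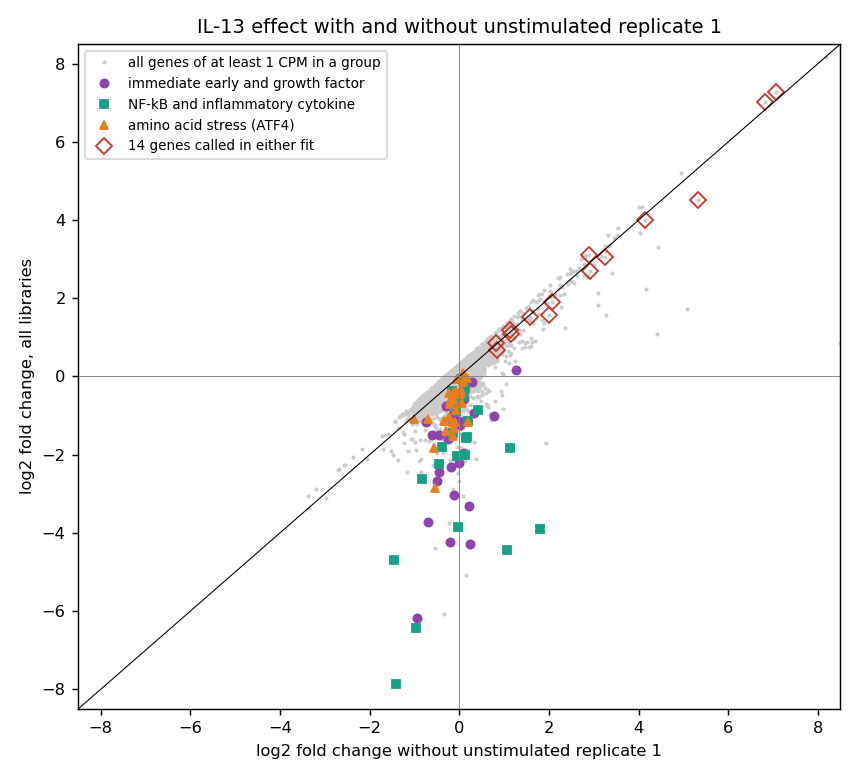
Log2 fold change with all libraries (vertical) against that without unstimulated replicate 1 (horizontal), 1 point per gene of at least 1 CPM in a group, with 3 stress lists in colour, 14 called genes as open diamonds and a line at equal values. The called genes lie on or near the line, while the coloured genes spread down the vertical axis near 0 on the horizontal one, as with CXCL8 at -7.88 and -1.42.

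Without unstimulated replicate 1, RASGRF1, a Ras exchange factor, had the smallest p among genes with a symbol, a negative estimate and at least 1 CPM in a group. It gave -0.87 (SE 0.227, unadjusted p = 4.71e-04, adjusted p = 0.364). It read 11.5, 55.1, 42.9, 28.9 and 34.5 CPM unstimulated and 29.2, 26.1, 14.2, 22.4 and 18.3 CPM with IL-13. RCSD1, an actin capping regulator, gave -1.02 (SE 0.318, unadjusted p = 0.00288), and PPL, the desmosomal protein periplakin, -0.73 (SE 0.253, unadjusted p = 0.00680). Each was at its lowest in unstimulated replicate 1 (RCSD1 0.250 CPM, PPL 3.07 CPM), so that its estimate was smaller with all libraries, -0.71 and -0.44. The gene ENSG00000187951, for which the table of names gives no symbol, had a smaller p (unadjusted p = 4.01e-04, adjusted p = 0.325). With no filter on low counts edgeR called it lower without unstimulated replicate 1 (-10.2, SE 2.08, adjusted p = 0.0296). It was listed at 0 in all 5 IL-13 libraries and in unstimulated replicate 1, and at 5.50, 5.60, 11.8 and 3.01 CPM in unstimulated replicates 2 to 5. GENCODE marks its locus as overlapping others, among which estimated counts can be split, so its level is uncertain.

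Other gene groups gave few or no members past the unadjusted threshold. None of 38 tested interferon-stimulated genes, 33 cell cycle genes or 28 cholesterol and fatty acid synthesis genes reached an unadjusted p of 0.05 in either fit. Over all genes the shares were 2.04% and 1.57%, at which lists of this size would hold few or none. Of the cholesterol list, 25 of 28 estimates were positive with all libraries (median 0.28) and 18 without unstimulated replicate 1 (median 0.07). With all libraries 6576 of 13441 protein-coding genes tested had a positive estimate. Of 30 tested matrix genes only HAS3, hyaluronan synthase 3, was past it. HAS3 read 8.71, 13.4, 7.19, 8.99 and 14.6 CPM unstimulated and 59.2, 44.1, 17.9, 30.8 and 17.8 CPM with IL-13, with no overlap. Its log2 fold change was 1.68 (SE 0.439, unadjusted p = 4.72e-04, adjusted p = 0.344), so it was not called by edgeR, while the DESeq2 Wald test gave an adjusted p of 0.0393.

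Of 24 tested junction and barrier genes SPINT2 was called, and CLDN1, a tight junction claudin, gave -1.28 (unadjusted p = 0.00737) with all libraries and -0.54 (unadjusted p = 0.0805) without unstimulated replicate 1, where it read 175 CPM. The simple epithelial keratins KRT8 and KRT18 gave 0.69 (SE 0.227, unadjusted p = 0.00425) and 0.56 (SE 0.190, unadjusted p = 0.00511) and were not called. Of the 8 tested epithelial markers, which hold both keratins, 3 estimates were positive and 5 negative with all libraries (median -0.19), and 4 and 4 without unstimulated replicate 1 (median -0.14). IGF2BP3, which the hairpin of the other line targets, read 20.7, 44.4, 48.8, 30.7 and 31.3 CPM unstimulated and 32.3, 43.3, 42.0, 29.6 and 29.8 CPM with IL-13 in these control cells. The groups overlapped, with a log2 fold change of 0.01 (95% interval -0.73 to 0.75).

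Of the higher genes at an unadjusted p under 0.05, 57 of the 179 belonged to the RNAs without a poly(A) tail. They were 22 of the 32 small non-coding RNA genes, with a median log2 fold change of 2.65, and 35 of the 65 histone genes, with a median of 1.64. None was called. Their levels followed IL-13 replicates 1, 3 and 5 and not the IL-13 label as a whole. With those 3 libraries left out, a choice made after the values were seen, 6 genes were called with all other libraries and 7 without unstimulated replicate 1, and all of them were among the calls given above. CISH (3.82, SE 0.284, adjusted p = 3.82e-11) and SPINT2 (1.44, SE 0.280, adjusted p = 0.0317) were among the 6. That fit had 2 IL-13 libraries, and the calls of SOCS1, CCDC86, RFLNA, MSX1, NABP1 and LIMA1 were lost in it.

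The same contrast in the other libraries is set beside these values. In input RNA of the IGF2BP3 hairpin line 14 genes were called (0.0837%) and in polysome RNA of the control line 21 (0.125%). Of the 13 genes called here, 12 were called in the former, 12 in the latter and 11 in both, and all 13 estimates were positive in each. The labels do not say whether input and polysome libraries of the same number came from the same culture. The polysome calls may therefore not be separate observations. CISH rose by 4.01 in control input, 3.90 in the hairpin line and 3.95 in polysome RNA. MSX1 gave 4.52, 3.31 (adjusted p = 0.460) and 5.51 (adjusted p = 0.00797). CCDC86 gave 1.09, 1.17 (adjusted p = 6.20e-04) and 0.80 (adjusted p = 0.0733). The difference of the IL-13 effect between the lines was tested for all genes and none was called (0%), with 153 at an unadjusted p under 0.05 (0.914%). The difference between polysome and input RNA called none either (0%), with 326 at an unadjusted p under 0.05 (1.95%).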

How the data were processed

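RNA was measured by stranded, poly(A)-selected sequencing of 40 libraries in 8 groups of 5, per the labels' protocols, which name an NEB and a Truseq kit. The submitters' processing notes name MultiQC, Trimmomatic, Salmon and DESeq2, with no versions or roles, and the genome build and annotation are not given in the sources used here. The authors' deposited table holds estimated counts of 62263 genes, per the file headers and values, and TPM (transcripts per 1000000) per the file headers. The deposited TPM summed to between 83.1% and 85.5% of 1000000 in the 10 libraries, so it was scaled over more genes than the table holds. Of the gene IDs 62246 matched a symbol.

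Whole counts had been assumed in planning. Rounded estimated counts were fitted with edgeR 4.0.16 (quasi-likelihood, TMM scaling, filterByExpr on the groups) in R 4.3.3. All 40 libraries entered, with a mean for each group and 32 residual degrees of freedom (38 libraries and 30 without both libraries of unstimulated control replicate 1). The fit treated input and polysome libraries as independent, which the labels do not settle. The tested genes held at least 99.9% of each library's counts. Tests are two-sided, with Benjamini-Hochberg adjustment over the tested genes, and called means an adjusted p under 0.05. SE is the absolute log2 fold change divided by the root of F. CPM used TMM-scaled sizes. The interval of the HSD3B1 ratio and the floor of 3 counts cover counting error only. Intervals of log2 fold changes rest on this SE and so include the spread between libraries. The typical biological coefficient of variation was 0.430.

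Negative binomial counts were simulated for this comparison from each gene's mean per fraction and its fitted spread. No simulated library was set apart as unstimulated replicate 1 was, so the shares need not hold for the real libraries. Of 200 genes changed 4-fold among 16255, 68.0% were called, and of 200 changed 2-fold among 16304, 25.5%. Of the calls 2.86% and 3.77% were false. With 38 libraries 66.0% of 200 changed 4-fold among 16401 were called and 23.5% changed 2-fold among 16430. Of those calls 2.22% and 6% were false.

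Named were all called genes, genes called only without replicate 1, receptor, JAK, STAT6, STAT3 and SOCS genes, up to 3 genes of smallest p in each list, up to 6 of smallest p with a negative estimate, the genes that set replicate 1 apart, and the IGF2BP family. KRT8, KRT18, TGM2, ALOX15, SERPINB3, SERPINB4, PDCD1LG2, CD274, the RNAs without a poly(A) tail, the marker genes and the neighbours of called genes were added after their values were seen. Members and lists were chosen with earlier results of these data known. 1 called gene is left out of the text but is part of the counts.

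Alternatives were DESeq2 size factors, the Wald test of DESeq2 1.42.0, other filters, fewer groups in the fit, a replicate block, an offset for transcript length and leaving out each library. Promoters are RefSeq sequences of GRCh38.p14, matched by symbol for 10 of the 15 genes called in either fit. Figures used matplotlib.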

Additional observations from a re-analysis of the deposited data

Results flagged for a closer look

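A library lay far from the other 4 of its group, by Dixon's criterion at 95%, in 27 of 166 pairs of a named gene and a group. Chance flags about 1 in 20 groups. In 22 of the 27 the library was unstimulated replicate 1, high in all but 1 case. Of these 22, 10 were genes named because that library stood apart in them, and others came from lists set up with its profile known, so the number of flags cannot be read against the chance rate. Among the chemokine and cytokine genes it read 132 CPM for CXCL8, 105 for CXCL1, 59.7 for IL6, 29.9 for CXCL2, 18.6 for IL1A and 11.8 for CXCL6. SAA1, which is neither, read 28.0 CPM in this library. TNFAIP3, the NF-kB feedback inhibitor, read 69.3 CPM there, and G0S2 91.6 CPM. Among immediate early and ERK feedback genes it read 461 CPM for DUSP5, 165 for PHLDA1, 126 for NR4A1, 113 for FOSB, 41.7 for EGR3 and 27.5 for KLF2. The ATF4 targets ASNS and STC2 read 346 and 249.9 CPM. CLDN1 read 175 CPM. TGM2 read 26.5 CPM, CD274 35.7 CPM and SERPINB4 0.286 CPM. PPP1R21 was listed at 0 CPM in this library and lay between 9.53 and 12.7 CPM in the other 4.

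In the IL-13 group, replicate 1 was flagged for SOCS1 (19.4 CPM, others 7.65 to 11.0), RASD2 (9.62 CPM, others 3.20 to 4.72) and SAA1 (0.348 CPM, which is 8 counts). Replicate 4 was flagged for SOCS3 (40.0 CPM, others 22.2 to 26.0) and replicate 5 for PHLDA1, where it was low (14.6 CPM, others 19.5 to 20.5).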

How the results depend on the processing

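Called genes kept a positive estimate under every alternative that gave a value, for the 14 genes described. The 13 calls with all libraries became 33 with the DESeq2 Wald test, 6 of genes averaging at least 10 CPM, 8 with only the 10 libraries compared, 6 without IL-13 replicates 1, 3 and 5, and between 8 and 14 on leaving out each library (8 without unstimulated replicate 3). The 13 without unstimulated replicate 1 became 27, 7, 7 and 7 in the same order, and between 9 and 16. With only the compared libraries, those 7 were 6 higher and 1 lower, and 6 were among the 13. Fewer genes or samples enter the settings after the Wald test, and for that test the cause was not tested. Replicate numbers did not pair the samples (same-number correlations of deviations from -0.41 to 0.37, and no sample correlated best with its own number). Unstimulated replicate 2 correlated best with IL-13 replicate 1 (0.52), 3 with 2 (0.39), 4 with 3 (0.70) and 5 with 4 (0.68). A block by that order was not tested. With the number as a replicate block 12 and 14 genes were called, and with only the compared libraries 3 and 1.

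The estimates that changed sign belonged to genes that were not called, and the cause was not tested. Without both libraries of unstimulated replicate 1 they were JAK1 (-0.040), IL6 (1.12), IL1A (1.79), SAA1 (0.15), CXCL2 (1.05), ELF1 (-0.24), VPS13B (-0.28), IGF2BP1 (0.045) and IGF2BP3 (-0.13). With the length offset they were SOCS6 (0.053), KLF2 (-0.064), IGF2BP1 (0.023) and IGF2BP3 (-0.032). With the block and only the compared libraries they were IL6 (0.17) and SPG11 (0.16). Without IL-13 replicates 1, 3 and 5 they were JAK2 (0.086), STAT3 (0.11), SOCS3 (0.13), ISG15 (-0.31), FN1 (0.064) and ELF1 (-0.00582). On leaving out each library the ranges were -0.041 to 0.21 for JAK1, -0.10 to 0.088 for JAK2, -0.11 to 0.026 for TYK2, -0.086 to 0.018 for STAT6, -0.16 to 0.090 for SOCS6, -0.052 to 1.27 for KLF2, -2.12 to 1.12 for IL6, -4.22 to 1.81 for IL1A, -5.49 to 0.16 for SAA1, -4.77 to 1.05 for CXCL2, -0.24 to 0.23 for ELF1, -0.35 to 0.21 for SPG11, -0.28 to 0.31 for VPS13B, -0.36 to 0.083 for IGF2BP1 and -0.13 to 0.15 for IGF2BP3.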

Other observations

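Neighbours of the genes called in either fit, taken as the tested protein-coding genes next to them in GENCODE v29 order and chosen after the values were seen, numbered 30. Of these, 3 were higher at an unadjusted p under 0.05 (10%), beside 120 of 13441 protein-coding genes tested (0.893%), and none was called by edgeR. With the DESeq2 Wald test PPP1R14A and MB were called (adjusted p = 0.00253 for each). PPP1R14A, an inhibitor of myosin phosphatase next to SPINT2, read 2.32, 0.628, 1.54, 4.28 and 2.04 CPM unstimulated and 6.70, 4.72, 17.5, 7.75 and 8.68 CPM with IL-13, with no overlap. Its log2 fold change was 2.07 (SE 0.455, adjusted p = 0.0662), and it was called in input RNA of the IGF2BP3 hairpin line (2.12, adjusted p = 0.0499) and in polysome RNA of the control line (2.38, adjusted p = 0.0192). Its gene model overlaps that of SPINT2 on the opposite strand, and reads of the pair cannot be told apart unless strand was used in counting.

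MB, the oxygen-binding protein myoglobin next to RASD2, read between 0 and 0.0897 CPM unstimulated and 2.26, 1.12, 0.890, 0.557 and 0.745 CPM with IL-13 (unadjusted p = 8.50e-05, adjusted p = 0.0949). The gene models of MB and RASD2 lie apart. MAPKAPK3, a kinase downstream of p38 that overlaps CISH on the opposite strand, read 43.6, 21.8, 24.1, 41.5 and 24.2 CPM unstimulated and 36.6, 44.1, 63.6, 47.5 and 50.3 CPM with IL-13, a log2 fold change of 0.64 (SE 0.207, unadjusted p = 0.00372). The groups of MAPKAPK3 overlapped. The other 27 neighbours did not reach an unadjusted p of 0.05.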
